A study of Mus musculus with 12 samples.

Results

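The matrix genes described here are 8 genes of connective tissue, Col1a1, Col1a2, Col3a1, Col2a1, Bgn, Dcn, Nid1 and Mfap4, taken by symbol from an expression table of 12158 mouse genes. All 8 were in the table, and all 8 passed a filter that left 12102 genes with a mean above −2 log2 RPKM. RPKM is the number of reads of a gene scaled by the length of the gene and the depth of the library, so levels can be set side by side between genes. Levels are in log2 RPKM unless RPKM alone is named, and 1 unit is a 2-fold step.

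The brain is wrapped in the meninges, sheets of fibroblasts that also run inward along blood vessels. These fibroblasts secrete fibrillar collagens, which form the ropes of connective tissue, small leucine-rich proteoglycans, which bind those fibrils and growth factors of the TGF-beta family, and parts of the basement membrane on which the brain surface rests. Neurons and most glia make little of this matrix. How much of this covering stayed on each dissected forebrain was not measured, so its part in any difference below was not tested. In bulk tissue fewer cells of a type and less RNA per cell cannot be told apart.

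RNA was read from bulk forebrain microdissected from Chd8+/del5 mice, which carry 1 mutant germline allele of Chd8, and from wild-type (WT) littermates, all of strain C57BL/6N. Chd8 is a chromatin remodelling enzyme. The table held 8 libraries of e12.5 (e stands for embryonic day), 9 of e14.5, 10 of e17.5, 11 of the day of birth (P0) and 6 of adults, whose labels give P56 as the age and, in the protocol, ages above it. The labels describe a Chd8+/del5 and a WT sample at each stage, but they do not say which of the 44 libraries is which, so each stage mixes both genotypes. Genotype and the other sources of spread between libraries of a stage cannot be told apart here, and no library was given a genotype. Libraries are numbered within a stage only as names. Whether each came from a separate animal is not stated, so a range covers the spread between libraries and no p-value is given.

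Reads were paired and 100 bp long at e12.5, and single and 50 bp long at the later stages, so a difference from e12.5 holds the read type too. For e17.5, for adults and for e12.5 libraries 4 and 7 the values themselves did not bear out base 2 of the logarithm, so all steps assume that it is 2 throughout. As a check of the tissue, all 17 markers of a telencephalon list were in the table, and their summed level lay between 280 and 1243 RPKM in every library. Adult library 1 stood apart from the other adults: its telencephalon list lay 1.04 above the adult median and its microglia list 0.64 below. Both shifts ran toward the P0 levels. The mean of the telencephalon list had a median of 4.89 at P0 and 3.19 in adults, and that of the microglia list 2.68 and 4.86. The reason was not tested. In e17.5 library 10 the list of thalamus, hypothalamus, midbrain and hindbrain genes lay 2.83 above its stage median. In adult library 4 it lay 3.13 above. Other libraries also lay far off, for example e17.5 library 2 at −2.31, P0 library 7 at −2.43 and P0 library 3 at 1.96. The summed level of the list ran from 6.17 to 219 RPKM at e17.5 and from 10.5 to 161 RPKM at P0. Ranges within a stage, counts of genes apart and correlations to lists that moved by over 1.5 times without adult library 1 or e17.5 library 10 are given without them too.

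RefSeq promoter windows on build GRCm38.p6 were matched by symbol for 4 of the 8 genes. They are the members that the RefSeq table held, and are shown to set their start regions side by side. Each is the 250 bases before the annotated start, on the plus strand, 5′ to 3′. Capitals mark 3 motifs on either strand: the CCAAT box, the GC box with the letters GGGCGG, whose matches can overlap one another, and the TATA box with the letters TATAAA. A match on the other strand appears as its reverse complement. Bgn lies at chrX:73483351-73483600, Col1a2 at chr6:4505368-4505617, Col3a1 at chr1:45311288-45311537 and Nid1 at chr13:13437352-13437601.
Bgn: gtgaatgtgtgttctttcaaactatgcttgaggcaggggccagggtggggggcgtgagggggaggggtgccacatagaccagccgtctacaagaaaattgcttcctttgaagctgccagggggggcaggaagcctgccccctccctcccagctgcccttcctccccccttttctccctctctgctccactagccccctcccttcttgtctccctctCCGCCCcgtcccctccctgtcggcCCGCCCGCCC
Col1a2: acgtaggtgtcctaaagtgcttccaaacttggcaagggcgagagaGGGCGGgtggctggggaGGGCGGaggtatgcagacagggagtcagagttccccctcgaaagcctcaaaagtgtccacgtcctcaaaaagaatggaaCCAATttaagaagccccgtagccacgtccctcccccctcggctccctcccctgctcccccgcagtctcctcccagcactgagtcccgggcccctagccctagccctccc
Col3a1: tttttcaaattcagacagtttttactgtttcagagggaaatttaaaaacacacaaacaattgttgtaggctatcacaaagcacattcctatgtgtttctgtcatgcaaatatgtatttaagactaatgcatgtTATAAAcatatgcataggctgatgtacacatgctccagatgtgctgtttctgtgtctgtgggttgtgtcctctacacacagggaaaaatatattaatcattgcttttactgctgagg
Nid1: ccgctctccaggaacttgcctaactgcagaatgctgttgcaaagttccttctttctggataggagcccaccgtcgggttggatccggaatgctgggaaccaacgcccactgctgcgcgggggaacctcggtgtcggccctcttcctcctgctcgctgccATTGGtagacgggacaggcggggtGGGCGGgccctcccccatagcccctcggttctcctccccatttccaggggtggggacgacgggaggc

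No motif was found in all 4 windows. Of all 32851 windows of this length, 33.8% held the CCAAT box, 32.7% the GC box and 12.4% the letters TATAAA. The GC box, a letter pattern bound by Sp1-type factors, was found in the windows of Bgn, Col1a2 and Nid1, and the CCAAT box in those of Col1a2 and Nid1. The Col3a1 window held the letters TATAAA, from 117 to 112 bases before the start, and none of the others did. This is a match of letters only, and whether it acts as a TATA box was not tested. GC content was 64.4% for Bgn, 62.0% for Col1a2, 64.4% for Nid1 and 35.2% for Col3a1, with a median of 52.4% over all windows.

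The first question was how the levels differed over development. The 3 fibrillar collagen genes of connective tissue had their highest medians at e12.5 and their lowest in adults. Col1a1 and Col1a2 encode the chains of type I collagen, the main fibril of skin, bone and meninges, and Col3a1 encodes type III collagen, which is laid down with it. Col1a1 had a median of 5.66 at e12.5 (range 3.65 to 6.80), 4.09 at e14.5 (3.12 to 4.50), 3.93 at e17.5 (2.39 to 4.52), 3.20 at P0 (2.49 to 3.84) and 0.88 in adults (0.43 to 2.49). Col1a2 had a median of 5.76 at e12.5 (3.76 to 6.89), 4.41 at e14.5 (3.72 to 4.86), 4.56 at e17.5 (2.85 to 4.82), 3.75 at P0 (3.08 to 4.60) and 1.80 in adults (1.08 to 3.49). For both genes the 4 stages before adulthood overlapped each with the next. Col3a1 had a median of 6.17 at e12.5 (4.43 to 6.99), 5.14 at e14.5 (4.21 to 5.56), 4.66 at e17.5 (2.02 to 4.98), 3.69 at P0 (3.09 to 4.66) and −0.77 in adults (−1.77 to 3.30). Its adult median was thus the lowest of the 3, although at e12.5 its median was the highest of the 8 genes.

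Col2a1 encodes type II collagen, the collagen of cartilage, which embryonic neuroepithelium and mesenchyme also make. It stood apart from the other genes in its course before birth. Its median was 4.95 at e12.5 (4.41 to 5.59), 3.86 at e14.5 (3.16 to 4.24), 1.36 at e17.5 (0.90 to 1.59), 0.70 at P0 (0.41 to 1.66) and −1.55 in adults (−2.90 to −0.21). Of its neighbouring stages, only e17.5 and P0 overlapped.

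The 2 proteoglycan genes did not share that course. Bgn encodes biglycan and Dcn encodes decorin, small leucine-rich proteoglycans that bind collagen fibrils and TGF-beta. Bgn had a median of 4.53 at e12.5 (3.78 to 5.59), 4.44 at e14.5 (4.25 to 4.83), 4.92 at e17.5 (3.85 to 5.55), 4.58 at P0 (4.15 to 4.92) and 3.004 in adults (2.74 to 3.83). Dcn had a median of 2.98 at e12.5 (1.75 to 4.36), 4.49 at e14.5 (3.66 to 4.73), 4.68 at e17.5 (2.66 to 5.15), 3.65 at P0 (3.32 to 4.46) and 2.92 in adults (1.89 to 3.75). Dcn was the only 1 of the 8 genes whose e12.5 median lay near its adult median, with its highest median at e17.5, and all its neighbouring stages overlapped. In adults Bgn and Dcn had the highest medians of the 8.

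Nid1 encodes nidogen-1, which links laminin to type IV collagen in basement membranes. Its median was 4.04 at e12.5 (3.35 to 4.44), 3.70 at e14.5 (3.32 to 3.85), 3.57 at e17.5 (2.93 to 3.86), 3.25 at P0 (2.86 to 4.22) and 0.60 in adults (0.37 to 2.33). Mfap4 encodes a glycoprotein that binds elastic fibres and collagen. Its median was 4.91 at e12.5 (4.29 to 5.31), 4.93 at e14.5 (4.58 to 5.30), 4.40 at e17.5 (3.92 to 4.92), 3.64 at P0 (3.01 to 4.51) and 0.32 in adults (−0.58 to 2.67). In both genes the stages before adulthood overlapped each with the next, and all 6 adult libraries lay below all 11 P0 libraries.

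**Figure D1:**
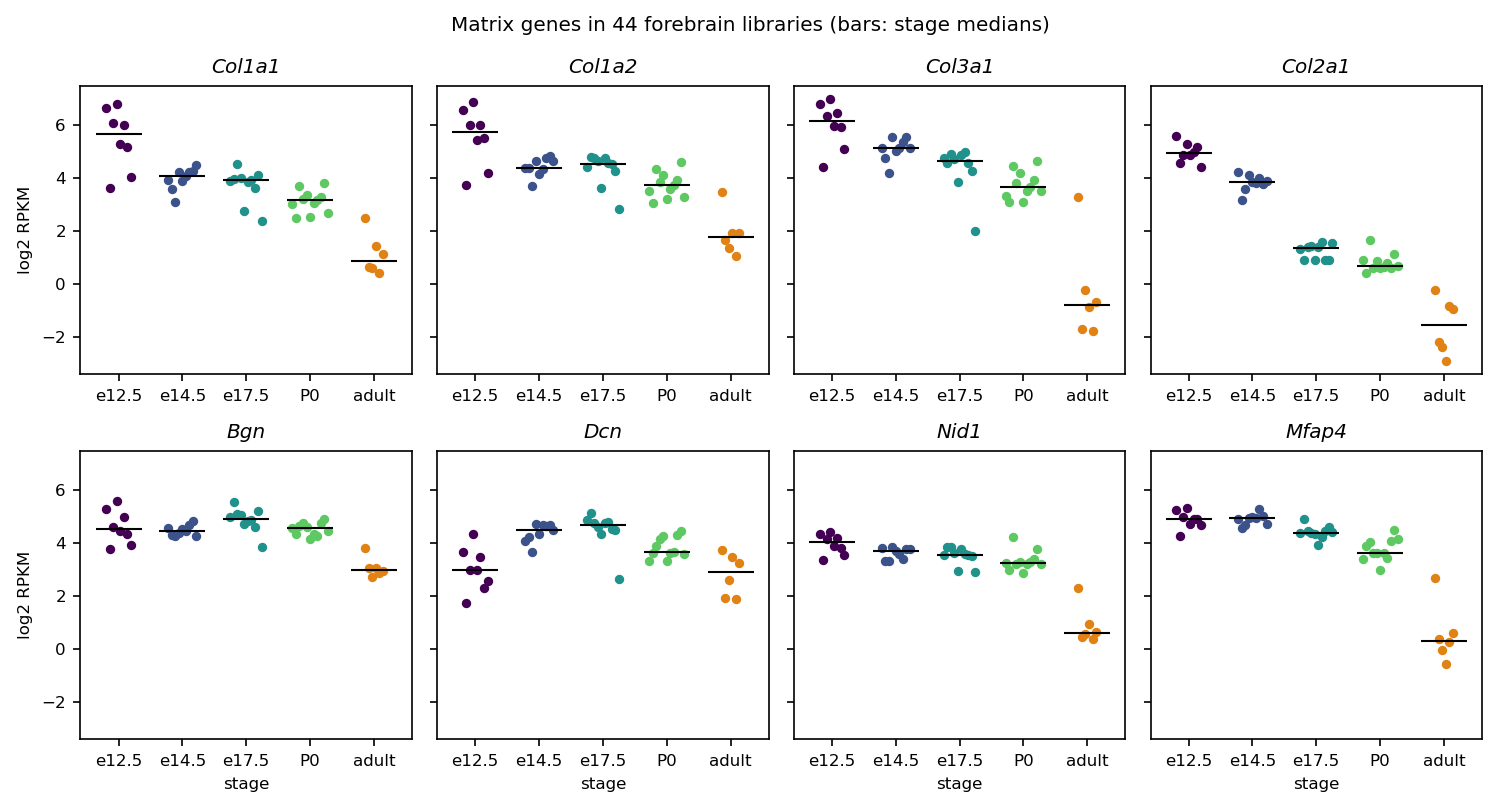
Level of each matrix gene (log2 RPKM, vertical axis) at each stage, with 1 point per library and a bar at the stage median; both genotypes are mixed. Single adult and e17.5 points lie far from their stage in several genes, such as the Col3a1 values of 3.30 in adult library 1 and 2.02 in e17.5 library 10.

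Each stage was then set against the one before it, and a gene was called apart where every library of 1 stage lay above every library of the other. The most genes were apart between adults and P0. There 5 of the 8 matrix genes were apart and lower in adults, and 0 higher, where 25.2% of all 12102 genes were lower, 29.3% higher and 54.5% either. The 5 were Col1a1 (median difference −2.31), Col2a1 (−2.25), Bgn (−1.58), Nid1 (−2.65) and Mfap4 (−3.32). The Col1a1 ranges parted by little, the highest adult library at 2.490 and the lowest P0 library at 2.494. With a gap of at least 0.5 required between the ranges, only Col2a1 and Nid1 were apart, 2 of 8, where 7.89% of all genes were lower by that rule. Col3a1 differed by −4.46 and Col1a2 by −1.95, and their ranges overlapped only through adult library 1. Without that library 7 of the 8 genes were lower, where 30.0% of all genes were, and Dcn was the 1 left (−0.72 with all libraries, −1.04 without library 1). The median difference of the 8 genes was −2.28 and that of all genes −0.01.

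Before birth few of the matrix genes were apart. A gene with a wide range within a stage is called apart less readily. At e12.5 the ranges of the 8 were wider than those of 90.5% to 99.6% of all genes. The median difference of the 8 genes was −0.68 at e14.5 against e12.5, where all genes had 0.03. In Col1a1 it was −1.57 and in Col1a2 −1.36, with overlapping ranges, and in Dcn 1.51. At e14.5 against e12.5, 1 of 8 was lower and 0 higher, where 22.3% of all genes were lower, 23.1% higher and 45.4% either, and the 1 was Col2a1 (−1.09). Its ranges lay less than 0.5 apart there, and with a gap of at least 0.5 required 0 of 8 were lower, against 6.78% of all genes. At e17.5 against e14.5, 1 of 8 was lower, again Col2a1 (−2.50), and 0 higher, where 12.1% of all genes were lower, 13.1% higher and 25.2% either. At P0 against e17.5, 0 of 8 were apart, where 6.28% of all genes were lower, 4.89% higher and 11.2% either. All 8 medians were nevertheless lower at P0 than at e17.5, by −0.32 in Nid1 to −1.03 in Dcn, with a median of −0.75 over the 8 genes and −0.0015 over all genes.

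Over longer spans the counts stayed low, though the levels differed. The median difference of the 8 genes was −0.86 at e17.5 against e12.5, where all genes had −0.02. At P0 against e14.5 it was −0.87, where all genes had −0.04. At e17.5 against e12.5, 1 of 8 was lower, Col2a1 at −3.59, and 0 higher, where 29.7% of all genes were lower, 28.7% higher and 58.4% either. Without e12.5 library 2, Col3a1 was lower as well, and 30.5% of all genes were. At P0 against e14.5, Col2a1 (−3.17) and Mfap4 (−1.30) were lower and 0 of 8 higher, where 23.1% of all genes were lower, 22.7% higher and 45.8% either. With a gap of at least 0.5 Mfap4 was no longer apart there (6.94% of all genes were lower by that rule), and without e14.5 library 3 Col3a1 was lower too (23.6%). Dcn had the largest positive difference, 1.51 at e14.5 against e12.5 and 1.71 at e17.5 against e12.5, with overlapping ranges in both. Leaving out e17.5 library 10 left these counts at 1, 0 and 1 for the comparisons with e14.5, P0 and e12.5.

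The second question was how far the libraries of 1 stage differed from each other in these genes. At e12.5, Col1a1 differed 8.89-fold between its highest and lowest library, Col1a2 8.79-fold, Dcn 6.09-fold and Col3a1 5.89-fold. These were wide ranges for that stage: the range of Col1a1, 3.15 log2 units, was larger than that of 99.6% of all genes, whose median range was 0.35. Mfap4 and Nid1 had the narrowest ranges of the 8 at e12.5, 2.03-fold and 2.12-fold, which still exceeded those of 90.5% and 91.5% of genes. Chd8, with 2.09-fold, exceeded 91.1%. Single libraries set part of this, since Col3a1 spanned 3.65-fold without library 2 and Dcn 3.80-fold without library 4.

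At the later stages the ranges were less uniformly wide. At e14.5 they ran from 1.44-fold in Nid1, wider than 46.3% of genes, to 2.61-fold in Col1a1, wider than 95.7%. Bgn (53.1%) and Mfap4 (70.5%) were also unremarkable there. At e17.5 Col3a1 had the widest range, 7.82-fold, and Col2a1 the narrowest, 1.62-fold, which exceeded that of 67.8% of genes. Without library 10, Col3a1 spanned 2.17-fold and Dcn 1.76-fold, against 5.62-fold with it, and the widest range was that of Col1a1, 3.37-fold. Col1a2 then spanned 2.25-fold, against 3.92-fold with library 10, and Bgn 1.92-fold, against 3.26-fold. At P0 the ranges ran from 1.70-fold in Bgn (78.7%) to 2.95-fold in Col3a1 (97.5%). In adults Col3a1 differed 33.5-fold between libraries and Mfap4 9.51-fold. Without library 1 they differed 2.94-fold and 2.28-fold, and Col2a1 had the widest range, 4.27-fold, against 6.47-fold with library 1. The remaining adult ranges were 2.13-fold to 5.32-fold with library 1 and 1.24-fold in Bgn to 2.97-fold in Dcn without it.

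At e12.5, at P0 and in adults 1 library held the highest value of most of the genes, while the highest values were spread over 5 libraries at e14.5 and 3 at e17.5. At e12.5, library 4 was the highest in 7 of the 8 genes and library 2 the lowest in 7, with Col2a1 the exception in both. Col1a1, for instance, had 6.80 in library 4, 6.65 in library 1, 4.06 in library 8 and 3.65 in library 2. At e14.5, library 3 was the lowest in 5 genes and library 2 in the other 3, and library 8 was the highest in 3 genes. At e17.5, library 2 was the highest in 4 genes. Library 10 was the lowest there in 6 genes, with Col3a1 at 2.02, Col1a1 at 2.39 and Dcn at 2.66. In the same library Col2a1 (1.57) and Mfap4 (4.41) lay at or above their stage medians. At P0, library 10 was the highest in 6 genes and library 3 in the other 2, Col2a1 and Nid1, while library 6 was the lowest in 5. In adults library 1 was the highest in all 8.

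The libraries at the ends also differed in genes of other cell types and regions. At e12.5, library 4 lay 1.10 above the stage median in the mean of the other meningeal genes, 1.18 in cartilage and bone genes, 0.86 in choroid plexus genes and 0.69 in pericyte and smooth muscle genes. Library 2 lay 0.93 below in the other meningeal genes and 0.01 from the median in telencephalon genes. In e17.5 library 10 the other meningeal genes lay 1.48 below and the pericyte genes 0.66 below the stage median, beside the high thalamus and hindbrain list. In e17.5 library 5, the next lowest for Col1a1, Col1a2 and Col3a1, the other meningeal genes lay 0.57 below. In adult library 1 the other meningeal genes lay 0.68 above, beside the telencephalon and microglia shifts given above. In e14.5 library 3 the other meningeal genes lay 0.50 below, choroid plexus genes 1.16 below and blood cell genes 1.33 below. At P0 the other meningeal genes lay 0.71 above in library 10, 0.44 above in library 3 and 0.39 below in library 6. In P0 library 3 the thalamus and hindbrain list lay 1.96 above and the telencephalon list 0.50 below. The part of these tissues in the spread of the matrix genes was not tested.

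The e17.5 columns carry 2 runs of numbers, S158 to S163 and S1 to S5, with 5 libraries each. The labels do not explain them. The medians of the 8 genes differed little between the runs, as in Col1a1 with 3.85 in S1 to S5 and 3.97 in S158 to S163, or Col2a1 with 1.40 in S1 to S5 and 1.33 in S158 to S163. All 8 ranges overlapped, and each run held 1 of the 2 low libraries.

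**Figure D2:**
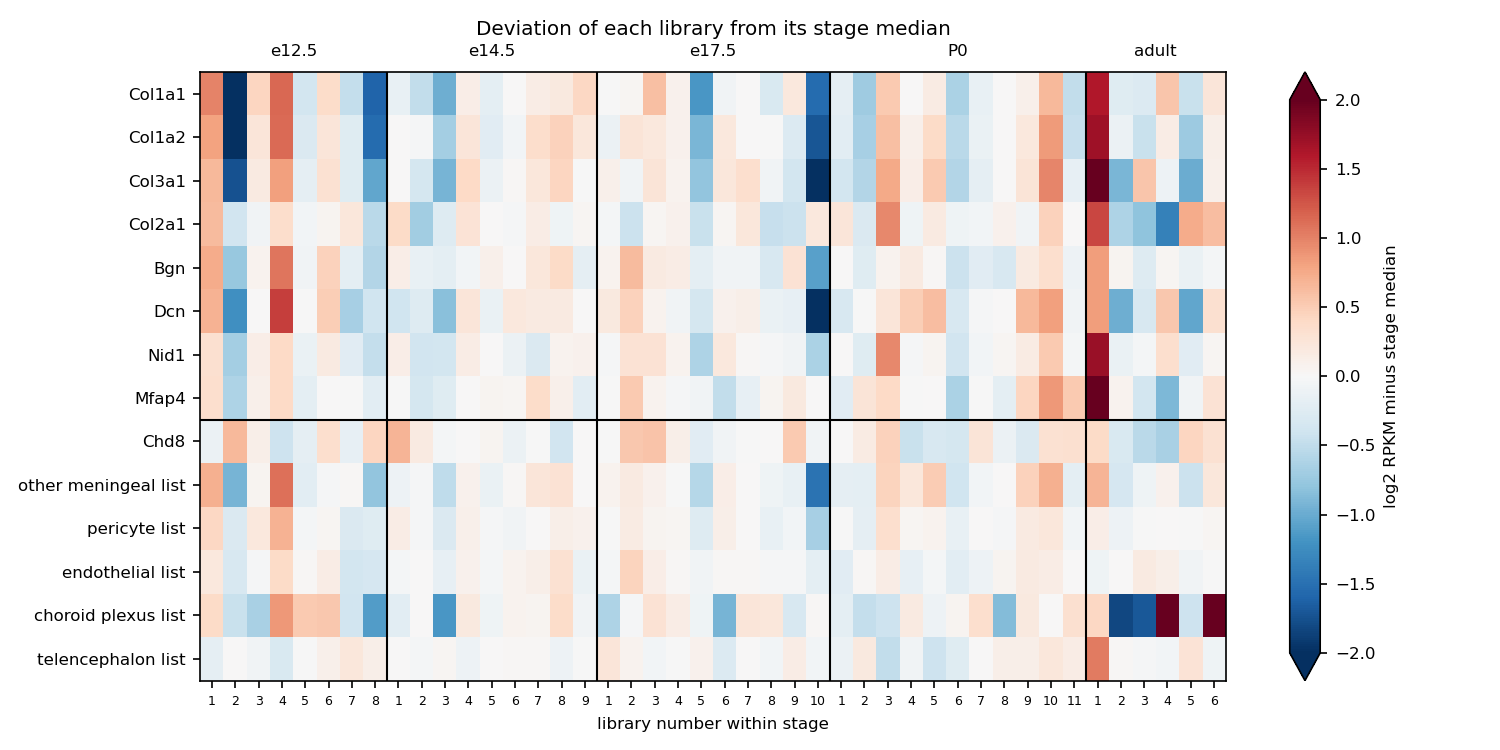
Deviation of each library (columns, grouped by stage) from its stage median in each matrix gene, in Chd8 and in the mean of 5 lists (rows), as log2 RPKM colours that saturate at −2 and 2. Most matrix genes share a colour within a column, as in e12.5 libraries 2 and 4, e17.5 library 10 and adult library 1.

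To describe how the genes moved together within stages, each value was centred on its stage median, and Pearson's r was taken over the 44 libraries. These correlations share libraries, sequencing depth and scaling between genes, and are given as descriptions with no p-value. Col1a1 and Col1a2, whose products join in 1 collagen molecule, had the highest r of the 28 pairs, 0.957. The next were Col3a1 with Nid1 (0.886) and Col1a2 with Col3a1 (0.872). Among the 15 pairs without Col2a1 and Mfap4 the median was 0.831 (0.666 to 0.957). The 7 pairs with Col2a1 had a median of 0.444 and the 7 with Mfap4 a median of 0.572, and the lowest of all was Col2a1 with Dcn (0.226). Without adult library 1 the 15 pairs had a median of 0.822, the pairs with Col2a1 0.313 and the pairs with Mfap4 0.405, and without e17.5 library 10 these were 0.809, 0.51 and 0.622. Over all pairs of genes in the table the median was −0.004.

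The matrix genes were then set beside a list of 25 other measured genes of meningeal and perivascular fibroblasts, which holds none of the 8. The r to the mean of this list was 0.928 for Col1a2, 0.906 for Dcn, 0.880 for Col1a1, 0.835 for Bgn, 0.814 for Col3a1, 0.734 for Nid1, 0.486 for Mfap4 and 0.382 for Col2a1. Thus 6 of the 8 reached 0.5, where 3.12% of all other genes did. The 8 genes and all lists were chosen with earlier results of these data known. This contrast and those with the lists below are therefore descriptions and no test. Mfap4 missed 0.5 narrowly and had 0.564 without e12.5 library 4 and e17.5 library 10, or a Spearman's rho of 0.518. Without adult library 1 the same 6 genes reached 0.5 (3.51% of other genes), and Mfap4 did not. Its r was 0.942 at e12.5, 0.595 at e14.5, 0.038 at e17.5, 0.624 at P0 and 0.705 in adults. Col2a1 stayed below 0.5 without e12.5 library 4 and e17.5 library 10 (0.479) and by Spearman's rho (0.429). Its r was 0.893 at e12.5, 0.232 at e14.5, −0.182 at e17.5, 0.542 at P0 and 0.417 in adults, so the label of meningeal fibroblast gene is less well borne out for it. Within stages the median r of the 8 genes to the list was 0.934 at e12.5, 0.728 at e14.5, 0.883 at e17.5, 0.867 at P0 and 0.894 in adults. Without the 2 libraries farthest from the median of the list in each stage it was 0.921, 0.507, 0.453, 0.827 and 0.578 in the same order. The e17.5 value thus rested in large part on libraries 5 and 10, and the adult value on libraries 1 and 5.

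**Figure D3:**
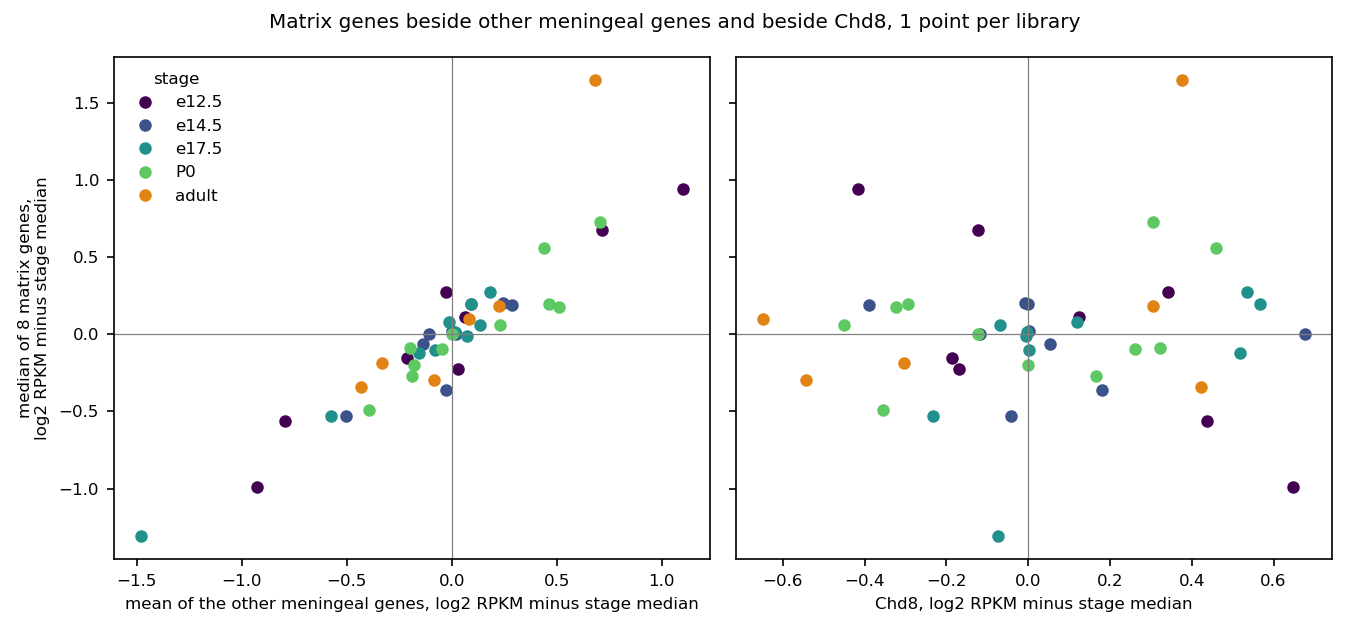
Median deviation of the 8 matrix genes (vertical axis, log2 RPKM minus stage median) against the deviation of the mean of 25 other meningeal genes (left) and of Chd8 (right), with 1 point per library, coloured by stage. Most points follow a rising line on the left, from e17.5 library 10 at −1.48 and −1.31 to e12.5 library 4 at 1.10 and 0.94. Adult library 1, at 0.68 and 1.65, is the highest point and lies above that line. On the right the points follow no single line.

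The matrix genes also followed the lists of their own molecular partners. For enzymes that modify, fold and crosslink collagen the median r was 0.840, and 7 of 8 genes reached 0.5 (3.45% of other genes). For the other collagens, proteoglycans and microfibril genes it was 0.797, with 8 of 8 (3.16%). For the TGF-beta and BMP pathway it was 0.742, with 6 of 8 (3.34%), and for basement membrane partners of Nid1 it was 0.709, with 8 of 8 (4.29%). Nid1 had its highest r to a list with the other collagens, 0.816, and 0.772 with its basement membrane partners. Without adult library 1 and e17.5 library 10 these 4 medians were 0.811, 0.733, 0.81 and 0.597, with 6, 8, 7 and 6 genes at 0.5 or above, in that order. Cartilage and bone genes, of which 9 of 19 were measured, gave a median of 0.389. Bgn alone was at 0.5 or above (0.551, where 1.43% of other genes reached 0.5), and Col2a1, the cartilage collagen, had 0.463. The median and the Bgn value rested on e12.5 libraries 1 and 4: without them the median was 0.229 and Bgn had 0.278. Col2a1 changed little, to 0.431. By Spearman's rho Col2a1 had 0.598 and Bgn 0.307. Without adult library 1, Col1a1, Col1a2, Col2a1 and Bgn reached 0.5, 4 of 8, and without e17.5 library 10 Col1a2 and Bgn did.

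Among markers of other cell types and regions, those of pericytes and smooth muscle came closest. They gave a median r of 0.742, with 6 of 8 genes at 0.5 or above (2.95% of other genes). By stage the pericyte median was 0.863 at e12.5, 0.682 at e14.5, 0.895 at e17.5, 0.868 at P0 and 0.798 in adults. At e17.5 and P0 the other meningeal genes had 0.883 and 0.867. Without e17.5 libraries 5 and 10 the e17.5 pericyte median was 0.484. The median rho was 0.793 for pericyte markers and 0.802 for the other meningeal genes. Endothelial markers gave 0.518, with 4 of 8 (2.46%), or 0.664 with 6 of 8 without adult library 1. By stage their median was 0.86 at e12.5, 0.651 at e14.5, 0.623 at e17.5 and 0.584 at P0. In adults it was −0.386, with only Dcn above 0 (0.025) and Col2a1 the lowest (−0.857). Blood cell genes, of which 5 of 13 were measured, gave 0.354, with 0 of 8 (0.356%), and choroid plexus genes 0.276, with 0 of 8 (0.521%). The choroid plexus value differed by stage. Its median was 0.689 at e12.5, with all 8 genes between 0.513 and 0.793, and 0.665 at e14.5, with Col3a1 at 0.904, Dcn at 0.899, Col1a2 at 0.879 and Col1a1 at 0.802. It was −0.074 at e17.5, −0.031 at P0 and 0.221 in adults. Without adult libraries 4 and 6 the median over all libraries was 0.49, above the 0.473 that endothelial markers had without their own 2 farthest libraries. Of 14 choroid plexus genes 9 were measured, with a summed level of 40.1 to 142 RPKM at e12.5, 272 to 880 at e14.5, 273 to 983 at e17.5, 318 to 1085 at P0 and 111 to 1437 in adults. Their part in the spread of the matrix genes was not tested. Microglial genes gave 0.184, with 0 of 8 (4.25%), or 0.544 with 5 of 8 without adult library 1 and 0.109 without e17.5 library 10. By stage the microglial median was 0.804 at e12.5, 0.416 at e14.5, 0.579 at e17.5, 0.145 at P0 and −0.757 in adults. Without adult libraries 1 and 3 the adult value was 0.716. Telencephalon genes gave 0.147, with only Mfap4 at 0.5 or above (9.21%), or −0.26 without adult library 1. This value joins stages of opposite sign. The telencephalon median was −0.602 at e12.5, −0.447 at e14.5, 0.029 at e17.5, −0.216 at P0 and 0.806 in adults. Without adult libraries 1 and 5 the adult value was −0.537. Thalamus, hypothalamus, midbrain and hindbrain genes, of which 17 of 33 were measured, gave 0.017, with 0 of 8 (2.64%). Without e17.5 libraries 5 and 10 they gave 0.184. Their median was −0.466 at e17.5 and between 0.131 and 0.327 at the other stages.

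**Figure D4:**
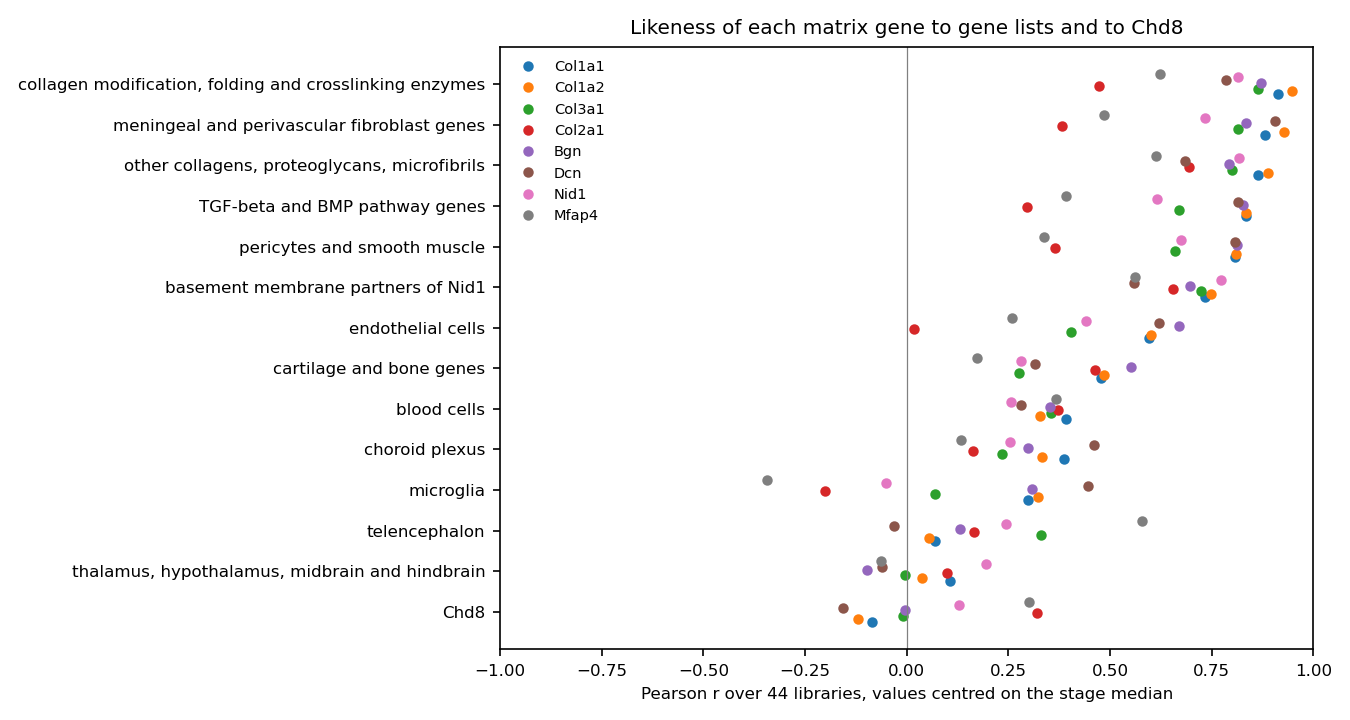
Pearson's r of each matrix gene (points, coloured by gene) to the mean of each list and to Chd8 (rows) over 44 libraries, with values centred on the stage median. Most points lie to the right for fibroblast, collagen and pericyte lists and around 0 for Chd8, and Col2a1 and Mfap4 lie left of the other 6 genes in the fibroblast row.

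Chd8, the gene that is mutant in the Chd8+/del5 animals, had an r near 0 to most of the matrix genes over all libraries. Its median r to the 8 genes was −0.007 (−0.157 for Dcn to 0.32 for Col2a1), or −0.104 without adult library 1 and −0.043 without e17.5 library 10, and 0 of 8 reached 0.5, where 6.14% of other genes did. Chd8 itself had a median of 4.31 at e12.5 (3.90 to 4.96), 4.01 at e14.5 (3.62 to 4.69), 3.94 at e17.5 (3.70 to 4.50), 4.14 at P0 (3.69 to 4.60) and 3.72 in adults (3.08 to 4.15). Its ranges overlapped in every comparison of stages above.

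Within stages the sign differed. At e12.5 all 8 genes had a negative r to Chd8, with a median of −0.739 (−0.787 to −0.651) over 8 libraries, and 4.4% of other genes lay at or below that median. Libraries 2 and 8, low in the matrix genes, had the highest Chd8 levels, 4.96 and 4.75, and library 4, high in 7 of them, the lowest, 3.90. Without libraries 2 and 8 the median was −0.263. A negative r was not particular to Chd8 there. In the same 8 libraries the telencephalon list gave a median of −0.602, with 0 of 8 genes above 0. The endothelial list gave 0.86 and the microglia list 0.804. At e17.5 the median was 0.538, with 7 of 8 above 0, and 13.1% of other genes lay at or above it. Without e17.5 libraries 2 and 3, which were farthest from the Chd8 median, it was 0.33. The other medians were −0.195 at e14.5 and 0.199 at P0, and adults had 0.293. No library has a known genotype, so none of this measures an effect of the mutation, and the difference between stages was not tested.

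Over the whole table, the genes most like the 8 matrix genes were taken by their mean r to them, among 11799 genes whose mean was 0 log2 RPKM or more. The first 10 were Lox (mean r 0.781), which crosslinks collagen and elastin, Col5a2 (0.772), a chain of the type V collagen that forms within type I fibrils, Postn (0.771), the matricellular protein periostin, Col6a3 (0.771), Nid2 (0.766), the second nidogen, Cd248 (0.761), a surface glycoprotein of pericytes and fibroblasts, Ppp1r3b (0.761), Gpc3 (0.755), a heparan sulfate proteoglycan, Colec12 (0.754) and Lama4 (0.752), a laminin chain of vessel walls. Of these, 6 were in the fixed lists, and Cd248, Ppp1r3b, Gpc3 and Colec12 were not. The 99th percentile of the mean r over these genes was 0.586, and Chd8 ranked 4833 with 0.047. Lox shared the adult low of Col3a1, with medians of 2.26 at e12.5, 2.03 at e14.5, 2.15 at e17.5, 0.81 at P0 and −2.65 in adults.

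Other genes of the matrix and its pathways were set beside the 8 in the same comparisons, first in adults against P0. Of 15 basement membrane partners of Nid1, 10 were lower in adults and 0 higher (median difference −1.30), among them Nid2 (−2.87), Col18a1 (−2.35), Col15a1 (−1.92) and the laminin gene Lama1 (−1.91). Of 16 other collagens, proteoglycans and microfibril genes, 7 were lower and 1 higher (median −1.43), with Mfap2 at −3.82, Fbn2, a fibrillin, at −3.66, Vcan, the large proteoglycan versican, at −2.995 and Col5a2 at −2.62. Of 21 collagen enzymes, 8 were lower and 3 higher (median −0.57), with the crosslinking genes Loxl2 at −3.19 and Loxl1 at −2.24, the lysyl hydroxylase gene Plod2 at −1.70 and the prolyl hydroxylase gene P4ha1 at 1.62. These stand beside 25.2% of all genes lower and 29.3% higher, with a median of −0.01.

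Of the 25 genes of the wider meningeal list, 4 were lower in adults than at P0 and 1 higher (median −0.86), with the growth factor gene Igf2 at −2.36, Fbln1 at −2.01, Igfbp2 at −1.79 and the retinoic acid carrier gene Crabp2 at −1.70. Over all genes 25.2% were lower and 29.3% higher in this comparison. Without adult library 1, 10 of the 25 were lower, 10 of the 16 other collagens, 12 of the 21 enzymes and 11 of the 15 basement membrane genes. Without that library 30.0% of all genes were lower. Of 9 cartilage and bone genes 3 were lower and 3 higher, and of 19 TGF-beta and BMP genes 4 were lower and 5 higher, with Tgfb2, a ligand, at −1.78, its receptor gene Tgfbr1 at −1.58 and the signal transducer gene Smad3 at 1.72. In the same comparison 11 of 11 microglial markers and 6 of 15 endothelial markers were higher in adults, and 0 and 1 were lower. Their part in the lower matrix levels was not tested.

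Between e17.5 and e12.5 meningeal genes differed in both directions. At e17.5 against e12.5, the transporter genes Slc6a13 (5.05) and Slc22a6 (4.38) were higher, and 5 of the 25 were lower, among them Crabp2 (−3.24) and the mesenchymal factor Twist1 (−3.08), with a median of −0.13. Among the other collagens, Eln, which encodes elastin, was higher (2.23), and Col5a1 (−1.83), Col5a2 (−1.78) and Fn1, fibronectin, (−1.37) were lower. The procollagen peptidase gene Adamts2 was higher (2.42) and Serpinh1, the collagen chaperone gene, lower (−1.39). Basement membrane genes were apart and lower in 5 of 15 and higher in 0, with Col18a1 at −2.14, Lama1 at −1.81, Hspg2, perlecan, at −1.76 and Lamb2 at −1.26. Over all genes 29.7% were lower and 28.7% higher in this comparison, and e12.5 differed in read type.

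Between P0 and e14.5 the ranges overlapped for most of the listed genes and for most genes of the table, of which 23.1% were lower and 22.7% higher at P0. At P0 against e14.5, 1 of 25 meningeal genes was lower, Lum, which encodes lumican, a small leucine-rich proteoglycan like Bgn and Dcn (−2.46), and 0 were higher. Of the 16 other collagens, proteoglycans and microfibril genes Eln was higher (1.54), and Emilin1 (−1.03) and Mfap2 (−0.80) were lower. Of the 21 collagen enzymes 3 were higher and 3 lower, with Serpinh1 at −1.66. Of the 15 basement membrane genes Col15a1 was higher (1.40) and Col18a1 lower (−1.31).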

How the data were processed

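The labels list 10 RNA samples, 1 per genotype and stage, and the expression table holds 44 columns. The column names give the stage and digit codes that no label explains, so no column was matched to 1 sample and the planned comparison of Chd8+/del5 with WT was not run. Per the labels, the authors deposited log RPKM values, read here as log2. The base was checked on 57 genes: the share of low values on whole steps of a read, within 0.05 of a step, was 76.7% at e14.5 and 63.2% at P0 in base 2, against 47.6% and 38.9% in base e. At e12.5 it was 74.2% in base 2, against 55.5% in base e, but libraries 4 and 7 had 29.6% and 32.3% in base 2, against 52.4% and 58.6% in base e. At e17.5 it was 30.1% in base 2, against 31.2% in base e, so that scale is less sure there, and in adults at most 3 libraries had such values. STAR 2.4.2a and the genome build mm9 are named in the submitters' processing notes. How reads were counted, on which annotation, with which prior count and between-library scaling is not given in the sources used here, so folds of low genes are understated by an unknown amount. Total depth per library is unknown. The low values of the 20 libraries of e14.5 and P0 put their relative depths between 0.62 and 1.17 of their median.

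From these values stage medians, ranges and Pearson's r (values centred on the stage median) were computed with Python 3.11.15, numpy 2.4.6 and pandas 2.3.3. Genes with a mean of at most −2 (56) were left out. A list level is the mean log2 RPKM of its genes. No test was run, because libraries of a stage mix genotypes. The range comparison was tested on simulated data. No 2 libraries held identical values (highest correlation between libraries 0.995). The members, the 6 gene lists and 7 marker lists were chosen with earlier results of these data known. The rule for named genes takes the 8 members, Chd8, the 10 genes most like them and, of each list, up to 4 genes that were apart in a comparison or differed most between adult and e12.5; the text gives part of these. Alternatives were library centring, quantile normalization, no filter, a gap of 0.5 between ranges, Spearman's rho, and leaving out each library, a stage or the farthest libraries. Peaks of the Chd8 ChIP-seq were not used here.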

Additional observations from a re-analysis of the deposited data

Results flagged for a closer look

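For the 8 matrix genes and Chd8, the values of e12.5, e14.5, e17.5 and adults were screened for an end value whose gap to its neighbour exceeded Dixon's 95% critical value as a share of the range. P0, with 11 libraries, was left out because the critical values used ended at 10 libraries. Of the 36 sets of values, 7 had such an end value. Chance alone gives about 1 in 20 sets, or 1.8, and the sets share libraries, so they are not independent. In 5 sets the end value was that of adult library 1. It had 3.49 log2 RPKM in Col1a2 against 1.95 in the next adult library, 3.30 in Col3a1 against −0.21, 3.83 in Bgn against 3.05, 2.33 in Nid1 against 0.94 and 2.67 in Mfap4 against 0.61. In the other 2 it was that of e17.5 library 10. It had 2.02 in Col3a1, where the next lowest had 3.87, and 2.66 in Dcn, where the next lowest had 4.33. Chd8 had none in the 4 stages screened.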

How the results depend on the processing

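Of the counts and median correlations, 585 values under alternatives stayed near the reported value and 23 moved. Among single genes in 1 comparison 0 reversed, 5 lost their separation, each under the wider gap, and 4 gained it, each without 1 library. With a gap of at least 0.5 required between ranges, the number of matrix genes apart was 0 at e14.5 against e12.5 (6.78% of all genes lower by that rule), 2 in adults against P0 (Col2a1 and Nid1, 7.89%) and 1 at P0 against e14.5 (6.94%). With 1 library left out in turn it was 5 to 7 in adults against P0, 1 to 2 at e17.5 against e12.5 (2 without e12.5 library 2, when Col3a1 joins), 2 to 3 at P0 against e14.5 (3 without e14.5 library 3, when Col3a1 joins), 1 to 1 at e14.5 against e12.5 and at e17.5 against e14.5, and 0 to 0 at P0 against e17.5. The median r to the other meningeal genes ran from 0.781 to 0.848, to pericyte markers from 0.702 to 0.821, to endothelial markers from 0.461 to 0.664, to blood genes from 0.294 to 0.391, to choroid plexus from 0.234 to 0.369, to microglia from 0.1 to 0.544, to telencephalon from −0.26 to 0.221, to thalamus, hypothalamus, midbrain and hindbrain from −0.025 to 0.195 and to Chd8 from −0.104 to 0.093. Without e12.5 the r to Chd8 was 0.249 and to blood 0.287. With Spearman's rho the values were 0.388 for choroid plexus, 0.287 for blood, 0.206 for thalamus and hindbrain and −0.212 for telencephalon. Without the 2 farthest libraries they were 0.49 for choroid plexus, 0.247 for thalamus and hindbrain and −0.219 for telencephalon. Quantile normalization gave 0.132 for blood and −0.1 for thalamus and hindbrain, and thalamus and hindbrain had 0.221 without e17.5 and 0.184 without e17.5 libraries 5 and 10. Without adult library 1 microglia had 0.544 and telencephalon −0.26. The cause was not tested. Leaving out e17.5 library 10, e17.5 libraries 5 and 10, both libraries that stood apart, or single libraries from the ranges was chosen after seeing the data. No paired analysis was possible because the columns carry no replicate number that the labels explain. Depth per library is unknown, so no interval for counting error is given.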
